A study of Mus musculus with 10 samples.

Results

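The trefoil factors (Tff1, Tff2 and Tff3) and the gastrokines (Gkn1, Gkn2 and Gkn3) are 2 small families of secreted gastrointestinal peptides, each with 3 genes in the mouse. They were followed by gene symbol in RNA-seq counts of tumour epithelium from pancreatic ductal adenocarcinoma of KPFSR mice. All 6 symbols were among the 15624 listed genes, and all 6 passed the filter on low counts that left 13006 genes to test. The families were chosen by their symbols but with earlier results of the same comparison in view, that is, by their measured levels with corn oil and tamoxifen in all 10 libraries. Levels and fold changes of these 6 genes between the treatments are therefore a description and support no inference.

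By the labels' treatment field, 4 libraries came from tumours of mice given corn oil, the vehicle, and 6 from tumours of mice given tamoxifen. The epithelium was cut from frozen sections by laser capture microdissection. What follows on the genotype is knowledge of the model, not of the labels. In KPFSR mice a Flp recombinase under the pancreatic Pdx1 promoter starts the tumours, on a background with mutant p53. Both groups also carry floxed alleles of Slc7a11, the cystine importer, and a tamoxifen-activated Cre expressed from the Rosa locus in all tissues, so that tamoxifen deletes Slc7a11 in tumour and host alike. The labels give neither the dose, the time of treatment, the age nor the sex of the mice, and do not tie libraries to animals. Replicate numbers only name the libraries of a group in the order of their deposit, since the labels number none. P-values therefore measure the spread between these libraries, which may be partly technical.

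Trefoil factors are short peptides with a compact fold held by disulfide bonds, released with mucins onto mucosal surfaces, where they assist repair of the epithelium. In the normal stomach Tff1 is made by surface pit cells and Tff2 by mucous neck cells, while Tff3 belongs mainly to intestinal goblet cells. Gastrokines carry a BRICHOS domain. Gkn1 and Gkn2 are made by pit cells, Gkn2 binds Tff1 through a disulfide bond, and in the mouse Gkn3 marks mucous neck cells. The normal pancreas makes little of these peptides, whereas precursor lesions and tumours of the pancreas with a gastric type of differentiation can make much.

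Corn oil libraries held 16473902 to 36132316 counts, and tamoxifen libraries 6899347 (replicate 6) to 19462115. Levels are given as normalised CPM, the count of a gene relative to the total of its library after scaling by TMM factors. The targeted gene, Slc7a11, stood at 23.2 to 40.1 normalised CPM in the corn oil libraries and at 5.90 to 19.3 in the tamoxifen libraries. The groups did not overlap, and 1.95% of all tested genes were lower in this way. Its log2 fold change, tamoxifen minus corn oil, was -1.41 (SE 0.44, edgeR adjusted p 0.311). Reads of Slc7a11 outside the deleted exons would also be counted. Tamoxifen replicates 1 to 3 resembled each other more (r 0.921 to 0.963 across tested genes, on log2 CPM) than any other pair of libraries (at most 0.878). Log2 fold changes of the 6 genes and of some named genes, and the list medians reported, are therefore also given without them. The epithelial keratin Krt18 stood between 3185 and 10013 normalised CPM in all 10 libraries. Values of further epithelial markers, some of them lower in tamoxifen replicates 1 to 3, are given with the other cell markers.

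The counts of the 6 genes together made up 1.34% to 2.06% of all counts in the corn oil libraries. In the tamoxifen libraries they made up 0.0409% to 0.184%. Corn oil libraries had a mean share of 1.68% ± 0.383 (SD, n = 4), and tamoxifen libraries one of 0.0834% ± 0.0537 (SD, n = 6). No tamoxifen library came near the lowest corn oil library. With corn oil, Gkn3 and Tff1 ranked 6 and 8 among all listed genes by mean normalised CPM, and with tamoxifen 2519 and 745. In bulk libraries, fewer cells that make a peptide and less RNA of it per cell cannot be told apart.

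**Figure D1:**
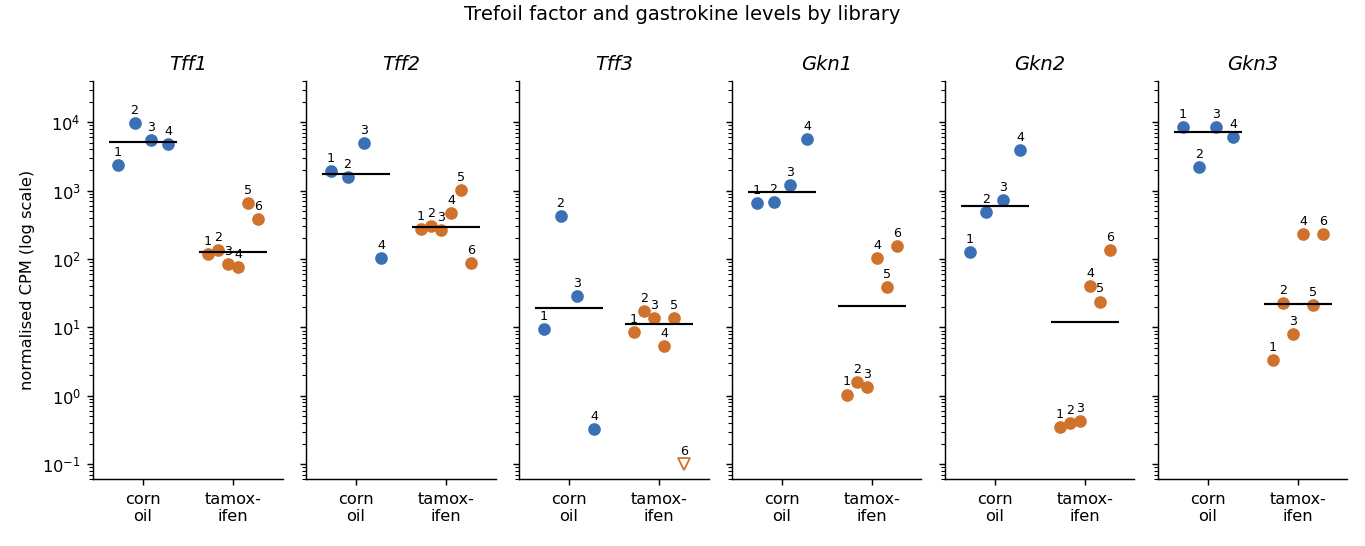
Normalised CPM of each gene (log axis) in every library, numbered by replicate, with corn oil in blue and tamoxifen in orange; lines are group medians and the open triangle marks a library with 0 counts. Tff1, Gkn1 and Gkn3 had no overlap between the groups, and tamoxifen replicates 1 to 3 had 1.05 to 1.61 normalised CPM of Gkn1.

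All 6 genes had a lower mean with tamoxifen, and for 3 of them (Tff1, Gkn1 and Gkn3) every tamoxifen library lay below every corn oil library. Of all tested genes, 1.95% were lower without overlap in this way. In edgeR's quasi-likelihood fit over all tested genes, 1 of the 6 (Tff1) passed a false discovery rate (FDR) of 0.05, which 0.0308% of all tested genes passed in the lower direction and 0.0384% in either direction. DESeq2 passed 5 of the 6 (1.87% of all tested genes), and limma voom with library weights 4 (9.62%). Nothing is read from these counts, since the families were chosen with this contrast known. The other 5 had edgeR adjusted p-values of 0.0969 to 0.368. All 6 had an unadjusted p under 0.05 with a negative fold change, as did 5.27% of tested genes (9.7% in either direction). All 6 had a log2 fold change below -2, as did 3.27% of tested genes. The median log2 fold change, tamoxifen minus corn oil, was -4.93 over the 6 genes (-4.04 without corn oil replicate 4, -4.25 without tamoxifen replicates 1 to 3) and -0.010 over all tested genes.

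Among the trefoil factors, Tff1 was the most abundant with corn oil per length of exon, at 7942 normalised CPM per kilobase, against 3687 for Tff2 and 239 for Tff3. With tamoxifen the order of the first pair was the other way round, with 696 for Tff2, 343 for Tff1 and 19.8 for Tff3. Within libraries, Tff1 was the higher of the pair per kilobase in 3 of 4 corn oil libraries, and Tff2 in 5 of 6 tamoxifen libraries.

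Tff1 stood at 2401, 9654, 5530 and 4747 normalised CPM in corn oil replicates 1 to 4. In the tamoxifen libraries it ran from 76.7 in replicate 4 to 649 in replicate 5, with a median of 126. The lowest corn oil library was thus 3.70 times the highest tamoxifen library. The group means were 5583 ± 3022 (SD, n = 4) and 241 ± 230 (SD, n = 6), and the log2 fold change was -4.53 (SE 0.66). It ranked 35 from the lowest among the 13006 tested genes. The log2 fold change was -4.19 with tamoxifen replicates 1 to 3 summed into 1 sample and -3.91 with them left out, and the groups did not overlap with or without them. Adjusted for multiple testing, edgeR's p for Tff1 passed 0.05 in all 10 libraries but not without corn oil replicate 1, 2, 3 or 4 (0.0629, 0.0845, 0.124 and 0.0822) nor without tamoxifen replicate 1, 2, 3 or 6 (0.133, 0.126, 0.0905 and 0.0552), nor with tamoxifen replicates 1 to 3 summed (0.267) or left out (0.509).

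Tff2 stood at 1964, 1558, 4986 and 105 normalised CPM in corn oil replicates 1 to 4. The tamoxifen libraries ran from 87.9 in replicate 6 to 1034 in replicate 5, with a median of 292. The groups overlapped through corn oil replicate 4, whose level lay among those of tamoxifen, while the other 3 corn oil libraries were above all tamoxifen libraries. The log2 fold change was -2.40 (SE 0.77), the smallest of the 6 in size. It was -1.57 without corn oil replicate 3 and -2.02 (SE 1.05) without tamoxifen replicates 1 to 3. The same corn oil replicate 4 had the highest Gkn1 and Gkn2 of all libraries.

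Tff3 was low in most libraries and rested on 1 of them. It stood at 9.54, 432, 29.2 and 0.333 normalised CPM in corn oil replicates 1 to 4, from 155, 14161, 725 and 8 counts. The tamoxifen libraries ran from 0 counts in replicate 6, which allows up to 0.490 normalised CPM at 3 counts, to 17.3 in replicate 2, with a median of 11.1. The groups overlapped over most of their range. The log2 fold change was -3.58 (SE 1.31) in all libraries, and -4.18 (SE 1.95) without tamoxifen replicates 1 to 3. It was -0.41 (SE 1.24) without corn oil replicate 2. With the library weights of limma voom it was -0.13 (SE 1.19). Without that library the difference was thus smaller than its SE.

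Among the gastrokines, Gkn3 was the most abundant with corn oil, at 7356 normalised CPM per kilobase of exon, beside 1668 for Gkn2 and 1639 for Gkn1. With tamoxifen these levels were 101.8, 42.1 and 40.4 normalised CPM per kilobase. The means of Gkn1 and Gkn2 were close, but the order varied within libraries. Gkn1 was the higher per kilobase in 2 of 4 corn oil libraries (535 against 159 in replicate 1) and in 5 of 6 tamoxifen libraries.

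Gkn3 stood at 8456, 2211, 8389 and 6130 normalised CPM in corn oil replicates 1 to 4. In tamoxifen libraries it ran from 3.31 in replicate 1 to 234 in replicate 6, with a median of 22.0. The gap was the widest of the 6 genes, with the lowest corn oil library at 9.44 times the highest tamoxifen library. Group means were 6297 ± 2930 (SD, n = 4) and 87.2 ± 114 (SD, n = 6), and the log2 fold change was -6.18 (SE 1.13). It ranked 8 from the lowest among all tested genes, and was -5.63 with tamoxifen replicates 1 to 3 as 1 sample, -5.27 without them and -6.77 without tamoxifen replicate 4 or without replicate 6.

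Gkn1 stood at 669, 674, 1226 and 5626 normalised CPM in corn oil replicates 1 to 4. The tamoxifen libraries lay in 2 ranges, with replicates 1 to 3 at 1.05, 1.61 and 1.33 and replicates 4 to 6 at 105, 39.1 and 155. The lowest corn oil library was 4.30 times the highest tamoxifen library. The log2 fold change was -5.35 (SE 1.35) in all libraries, -4.09 once corn oil replicate 4 was left out and -6.12 once tamoxifen replicate 6 was. It was -4.36 without tamoxifen replicates 1 to 3.

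Gkn2 stood at 125, 487, 721 and 3926 normalised CPM in corn oil replicates 1 to 4. In tamoxifen replicates 1 to 3 it rested on 4, 8 and 9 counts (0.348, 0.404 and 0.426 normalised CPM), and in replicates 4 to 6 it stood at 40.0, 23.9 and 134. The groups overlapped by a single pair, since tamoxifen replicate 6 was just above corn oil replicate 1. The log2 fold change was -5.32 (SE 1.53) in all libraries, -3.76 once corn oil replicate 4 was left out and -6.65 once tamoxifen replicate 6 was. It was -4.32 without tamoxifen replicates 1 to 3.

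**Figure D2:**
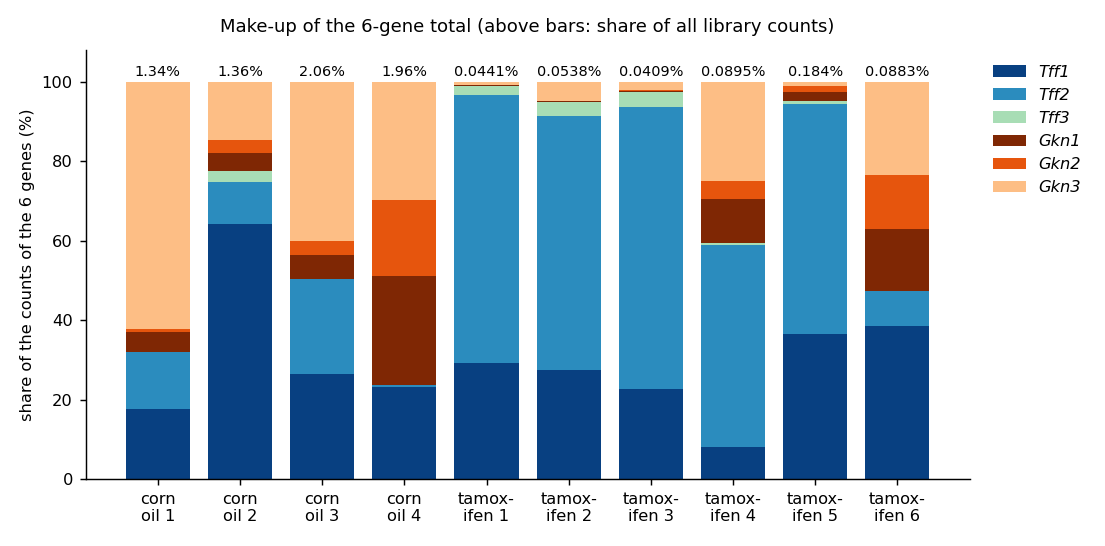
Stacked bars give the share (%) of each gene in the summed counts of the 6 genes for each library, and the number over each bar is the share of the 6 genes in all counts of that library. Tff2 led in tamoxifen replicates 1 to 5 at 50.6% to 70.9%, while Gkn3 or Tff1 led in corn oil libraries.

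The make-up of the 6-gene total, which does not depend on the scaling of the libraries, also differed from library to library. With corn oil the leading gene was Gkn3 in replicates 1, 3 and 4 (62.1%, 40.2% and 29.9% of the 6-gene counts) and Tff1 in replicate 2 (64.3%). With tamoxifen it was Tff2 in replicates 1 to 5 (50.6% to 70.9%) and Tff1 in replicate 6 (38.5%). Gastrokines held 22.5% to 76.4% of the 6-gene counts with corn oil. With tamoxifen they held 1.16%, 5.15% and 2.62% in replicates 1 to 3, 40.6% in replicate 4, 4.73% in replicate 5 and 52.6% in replicate 6. The groups overlapped in this share, so a family that was low overall still kept a gastrokine portion like that of corn oil in tamoxifen replicates 4 and 6.

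Gkn1 and Gkn2 went together from library to library. Their log2 levels had a Pearson's r of 0.991 over the 10 libraries, and 0.982 after each group's mean was subtracted, which takes out the difference between treatments. Gkn1 had r values with Gkn3 of 0.941 and 0.829 on these scales. Tff1 and Tff2, neighbours on the chromosome, had r values of only 0.486 and 0.067. Tff2 and Tff3 had 0.731 and 0.722, and Tff3 against the gastrokines had negative values after centring (-0.603 with Gkn1). Tff3 had only 8 counts in corn oil replicate 4 and 0 in tamoxifen replicate 6, the libraries with the highest Gkn1 of their groups. Its r values thus rest partly on levels near the floor. All these r values are descriptions over the same 10 libraries, which share depth and the similarity of tamoxifen replicates 1 to 3.

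Likeness was then measured as Pearson's r on log2 CPM against 8763 other tested genes whose mean log2 CPM reached 3, and the gene most like Gkn1 was Gkn2 on both scales. Over the 10 libraries it was followed by Bok, Gpx2, St3gal6, Vasp and H2afv (r 0.953 to 0.978). The genes most like Gkn2 after Gkn1 included St3gal6, Bok, Vasp and Gpx2 (0.954 to 0.973). The genes most like Gkn3 were Tcf19, Acss1, Igsf5, Foxa3, Sh3pxd2b and Gkn1 (0.941 to 0.945). Foxa3 is a forkhead factor of foregut epithelium. The genes most like Tff1 were Bace2, Fermt1, Cmtm8, Snapc5, Pcna and Cib1 (0.920 to 0.953), and those most like Tff2 were Mthfs, Tmed3, Slc35b3, Tm4sf20, 1300002E11Rik and Scfd1 (0.883 to 0.934). Tff3 was below the level for this comparison. After subtraction of group means, Bace2 and Snapc5 remained among the 6 genes most like Tff1 (0.878 and 0.895), and Mthfs among those most like Tff2 (0.911).

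After centring, the other genes nearest to Tff1 were Snrnp70, Zfp703, Slc16a13 and Phlda3 (0.856 to 0.942), and those nearest to Tff2 were Agtrap, Gabarapl1, 1110032A03Rik, Ambp and Slc25a13 (0.920 to 0.974). Those nearest to Gkn1 after Gkn2 were Chmp6, Pgm3, Manf, Crnkl1 and Arl8a (0.946 to 0.956), and those nearest to Gkn2 after Gkn1 were Manf, Ccnd1, Pgm3, Cd44 and Dstn (0.955 to 0.980). Manf is a secreted stress protein of the endoplasmic reticulum, and Ccnd1 is cyclin D1. Those nearest to Gkn3 were Papss2, Lyn, F5, C1qb, 1110008P14Rik and Foxo1 (0.915 to 0.971), of which C1qb is a complement gene of macrophages. Gkn1 and Gkn2 were not among the 6 nearest to Gkn3 on this scale. Nothing follows from these lists on shared control, since 10 libraries yield high r values for many genes.

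The 2 families lie in 2 tight gene clusters. On GRCm38, Tff1 is at chromosome 17, 31161395 to 31165277, Tff2 at 31141049 to 31144282 and Tff3 at 31125306 to 31129646, all on the minus strand and within 39.97 kb. Gkn1 is at chromosome 6, 87345650 to 87350942 (minus strand), Gkn2 at 87373357 to 87379497 (plus strand) and Gkn3 at 87383256 to 87388935 (minus strand), within 43.3 kb. Exons of Tff1 share 221 bases with the antisense gene Gm15318 of GENCODE M21, which is not among the listed genes. The libraries do not mark strand, so any reads of that gene cannot be told from those of Tff1.

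Genes within 500 kb of either cluster were examined in the fit over all genes. Beside the counts that follow, 50.7% of all tested genes had a negative log2 fold change. An edgeR unadjusted p under 0.05, in either direction, was reached by 9.7% of them. Around the trefoil factors 12 neighbours were tested and 8 were lower with tamoxifen, with a median log2 fold change of -0.34. None passed the FDR in edgeR and 2 had an unadjusted p under 0.05. These were Glp1r, the GLP-1 receptor, at -4.29 (SE 1.87, edgeR adjusted p 0.484; -2.74 without corn oil replicate 1), and Slc37a1, a glucose-6-phosphate transporter, at -0.90 (SE 0.35, edgeR adjusted p 0.410). Tmprss3, the serine protease gene next to Tff1, had -2.22 (SE 1.60, edgeR adjusted p 0.725) at a mean of 2.12 normalised CPM with corn oil. Around the gastrokines 14 neighbours were tested and 7 were lower, with a median of -0.012. None passed the FDR in edgeR and 3 had an unadjusted p under 0.05. These were Gfpt1, the entry enzyme of the hexosamine pathway, at -1.16 (SE 0.28, edgeR adjusted p 0.182), the platelet glycoprotein gene Gp9 at -4.12 (SE 1.51, edgeR adjusted p 0.368; -6.32 without tamoxifen replicate 5) and the splicing factor gene Isy1 at 0.73 (SE 0.25, edgeR adjusted p 0.342). Antxr1, which adjoins Gkn1, had -1.73 (SE 0.89, edgeR adjusted p 0.576), and -0.61 (SE 0.98) without corn oil replicate 3. Of the neighbours named here, Gfpt1 passed the FDR with DESeq2 and voom, and Glp1r, Gp9 and Isy1 with voom only. Of all tested genes, 1.87% passed with DESeq2 and 9.62% with voom. Gfpt1 and Gp9 were lower without overlap and Isy1 higher, as were 1.95% and 1.28% of tested genes.

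**Figure D3:**
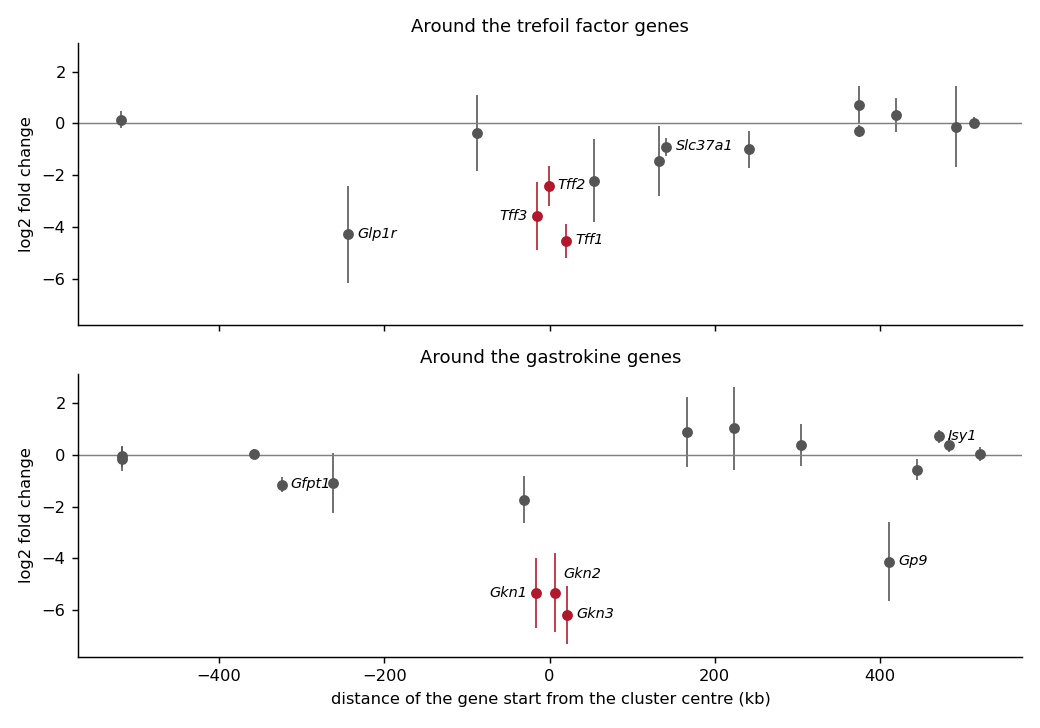
Log2 fold change (tamoxifen minus corn oil, with SE bars) of each tested gene against the distance of its start from the centre of the cluster in kb, with the 6 trefoil factor and gastrokine genes in red and neighbours in grey; the named neighbours had an unadjusted p under 0.05. Neighbours scattered around medians of -0.34 (trefoil cluster) and -0.012 (gastrokine cluster).

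The 250 bases before the RefSeq start of each gastrokine gene are shown because all 3 genes had lower means with tamoxifen and high r values among themselves. They come from the RefSeq promoter table for GRCm38.p6, which matched 3 of the 6 genes, with the RefSeq start site just after the last base. GENCODE M21 places the starts of Gkn1 (87350942) and Gkn2 (87373357) inside these windows. Capitals mark matches to the GATA words AGATAA and TGATAA, the forkhead word TGTTTGC and the TATA word TATAAA, on either strand. Positions are chr6:87350916-87351165 (minus strand) for Gkn1, chr6:87373115-87373364 (plus strand) for Gkn2 and chr6:87388936-87389185 (minus strand) for Gkn3.
Gkn1: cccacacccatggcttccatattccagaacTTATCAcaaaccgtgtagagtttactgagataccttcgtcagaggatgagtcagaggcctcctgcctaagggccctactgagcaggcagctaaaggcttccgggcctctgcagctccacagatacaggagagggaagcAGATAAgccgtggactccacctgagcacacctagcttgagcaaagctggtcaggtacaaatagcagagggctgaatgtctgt
Gkn2: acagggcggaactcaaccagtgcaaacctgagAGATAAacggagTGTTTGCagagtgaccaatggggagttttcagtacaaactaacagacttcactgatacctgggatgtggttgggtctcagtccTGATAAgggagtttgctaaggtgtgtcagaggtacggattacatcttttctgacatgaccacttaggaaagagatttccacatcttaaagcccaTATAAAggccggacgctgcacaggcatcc
Gkn3: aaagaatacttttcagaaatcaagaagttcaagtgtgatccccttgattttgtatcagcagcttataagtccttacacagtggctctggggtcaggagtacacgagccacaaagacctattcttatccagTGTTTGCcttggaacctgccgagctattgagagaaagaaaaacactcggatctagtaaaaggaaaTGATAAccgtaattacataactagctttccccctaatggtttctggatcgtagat

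In the full windows of 300 bases (250 before to 50 after the start) each of the 3 genes held both AGATAA and TGATAA. Over 32851 RefSeq windows of the same length, 11.2% held AGATAA, 9.05% held TGATAA and 1.62% held both. The AGATAA match of Gkn3 crosses the start site and is not capitalised above. TGTTTGC was found in Gkn2 and Gkn3 and in 5.07% of all windows. TATAAA was found in Gkn2 alone, 29 bases before the RefSeq start, and in 13.6% of all windows. TGTTTAC (3.65% of windows), the hypoxia response core ACGTG (19.6%), the palindromic estrogen response element (0.0700%) and the palindromic HNF1 site (0.00913%) were in none of the 3 windows. A TGTTTAC or TGTTTGC word was in 8.48% of all windows. A match describes letters only and shows no binding, and the absence of a word in 300 bases says nothing on the factor.

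Transcription factors of trefoil and gastrokine genes, or of the foregut and secretory epithelium that makes them, had mostly lower means with tamoxifen. Of 24 listed factors 20 were tested and 16 had a negative log2 fold change (50.7% of all tested genes did), with a median of -0.85 (-0.64 without tamoxifen replicates 1 to 3) beside -0.010 over all tested genes. Of the 20 factors, 1 (Creb3l4) fell past the FDR adjusted over all tested genes and none rose. An unadjusted p under 0.05 was reached by 7, all lower (5.27% of all tested genes), and 6 were lower without overlap (1.95% of all tested genes).

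Creb3l4, a membrane-bound factor of secretory cells, stood at 42.4 to 244 normalised CPM in the corn oil libraries and at 3.43 to 15.8 in the tamoxifen libraries, and fell by 3.88 on the log2 scale (SE 0.50, edgeR adjusted p 0.0351). Its adjusted p in edgeR was 0.0611 to 0.114 without corn oil replicate 1, 3 or 4 or tamoxifen replicate 1, 2 or 3, and 0.509 without the last 3 together. Foxa3 stood at 49.1 to 88.6 with corn oil and 19.8 to 38.5 with tamoxifen. Its log2 fold change was -1.49 (SE 0.29), with an edgeR adjusted p of 0.102. Klf5, the most abundant of the 20 and a factor of gut epithelium, had -0.23 (SE 0.25, edgeR adjusted p 0.848). The ETS factor Spdef, which drives mucous differentiation, stood at 48.8 to 149 with corn oil and 0 to 9.84 with tamoxifen. Its log2 fold change was -4.65 (SE 0.94), with an edgeR adjusted p of 0.113. The next 4 were picked out after their values were seen, for being under an unadjusted p of 0.05. Foxa1 had -3.58 (SE 0.84), Gata4 -1.30 (SE 0.55), Gata5 -1.07 (SE 0.36) and the ductal factor Sox9 -1.20 (SE 0.34), none past the FDR in edgeR with all 10 libraries. Without tamoxifen replicate 4, Foxa1 had -4.65 and passed it (edgeR adjusted p 0.0445). Foxa1, Foxa3 and Spdef passed the FDR with both DESeq2 and voom, and Gata5 and Sox9 with voom only. Without tamoxifen replicates 1 to 3, Foxa1 had -3.20, Spdef -4.68, Foxa3 -1.31, Gata4 -1.87, Gata5 -0.82 and Sox9 -0.81. Gata6, also named after its values were seen, had 0.089 (SE 0.56), with values of -0.28 to 0.96 when single libraries were left out, so that its sign turned, unlike those of Gata4 and Gata5.

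**Figure D4:**
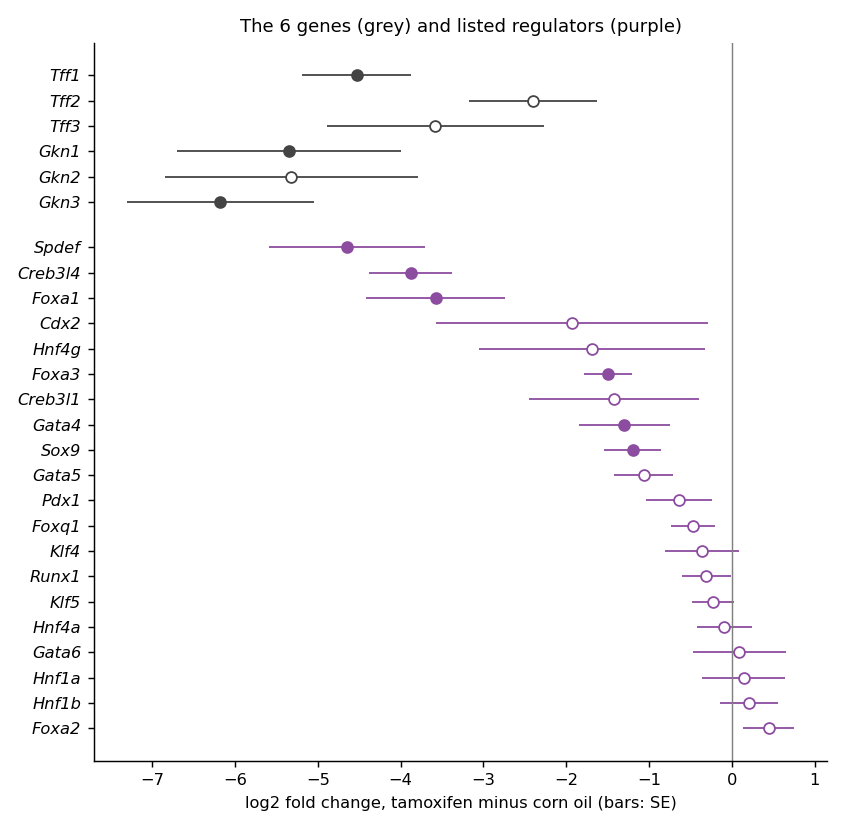
Log2 fold change (tamoxifen minus corn oil, bars are SE) of the 6 trefoil factor and gastrokine genes (grey) and the 20 tested factors (purple), with filled circles where the groups did not overlap. Spdef, Creb3l4 and Foxa1 had log2 fold changes of -4.65, -3.88 and -3.58.

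Genes of the cells that make these peptides in the stomach and gut had mostly lower means, and none passed the FDR in edgeR. Of 16 pit cell genes 14 were tested, 13 were lower, none passed the FDR and 5 had an unadjusted p under 0.05, all lower, with a median log2 fold change of -0.96 (-0.71 without tamoxifen replicates 1 to 3). Over all tested genes, 50.7% had a negative fold change and 5.27% were lower at an unadjusted p under 0.05, which also stands beside the counts of the next 2 lists. The aspartic protease Ctse, the most abundant, had -1.17 (SE 0.41, edgeR adjusted p 0.350), the membrane protein Vsig2 -2.05 (SE 0.60, edgeR adjusted p 0.273) and the annexin Anxa10 -2.33 (SE 0.82, edgeR adjusted p 0.350). Anxa10 was -1.59 without corn oil replicate 4 and -3.48 without tamoxifen replicates 1 to 3, which left Ctse at -0.77 and Vsig2 at -1.39. Vsig2 passed the FDR with DESeq2 and voom, and Ctse and Anxa10 with voom only. Of 12 genes of mucous neck cells, gastric metaplasia and Brunner glands 11 were tested, 9 were lower, 6 of them at an unadjusted p under 0.05, and none passed the FDR. Their median was -1.98, -3.19 with tamoxifen replicate 4 left out, and -1.13 with tamoxifen replicates 1 to 3 left out. The chloride channel Cftr had -3.97 (SE 1.23, edgeR adjusted p 0.302), the secreted protein Mia -4.03 (SE 0.97, edgeR adjusted p 0.170) and the chaperone-like Clu -0.98 (SE 0.37, edgeR adjusted p 0.384). Cftr was -6.10 without tamoxifen replicate 5, and Mia was -3.14 without corn oil replicate 3 and -4.72 without tamoxifen replicate 4. Without tamoxifen replicates 1 to 3, Cftr had -3.14, Mia -3.25 and Clu -0.54. Mia passed the FDR with DESeq2 and voom, and Cftr and Clu with voom only.

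Of 14 goblet cell genes 8 were tested, 7 were lower, 3 of them at an unadjusted p under 0.05, and none passed the FDR. Their median was -1.43, -2.47 with tamoxifen replicate 4 left out, and -1.39 with tamoxifen replicates 1 to 3 left out. Beside Spdef these included Ern2, the stress sensor of mucous cells, at -4.10 (SE 0.87, edgeR adjusted p 0.129), which stood at 46.0 to 125 normalised CPM with corn oil and 0.163 to 12.8 with tamoxifen. Agr2, the disulfide isomerase that folds mucins, had -2.98 (SE 1.36, edgeR adjusted p 0.511). Ern2 had -4.74 without tamoxifen replicate 5 and -3.63 without tamoxifen replicates 1 to 3, and passed the FDR with DESeq2 and voom. Agr2 stood at 414 to 1831 with corn oil, at 1.22, 1.36 and 2.75 in tamoxifen replicates 1 to 3 and at 451, 199 and 12.4 in replicates 4 to 6. Like Gkn1 and Gkn2 it was thus near 0 in replicates 1 to 3. Its log2 fold change was -2.39 with those summed and -1.995 with them left out, -2.34 without corn oil replicate 4 and -4.34 without tamoxifen replicate 4, and it passed the FDR with voom only.

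Partners and receptors of trefoil factors were also examined. Of 12 listed genes 8 were tested, 5 were lower, none passed the FDR in edgeR and none had an unadjusted p under 0.05. The median log2 fold change was -0.51, and it was 0.33 without corn oil replicate 3 and 0.48 without tamoxifen replicates 1 to 3. Muc6, the gland mucin secreted with Tff2, had -3.42 (SE 1.66, edgeR adjusted p 0.542), -6.90 without tamoxifen replicate 4 and -2.48 without tamoxifen replicates 1 to 3. Dmbt1, a scavenger receptor glycoprotein that binds Tff2, had 0.30 (SE 1.04, edgeR adjusted p 0.972), and was -1.05 without tamoxifen replicate 4 and 2.02 without corn oil replicate 1. F2rl1, the protease-activated receptor PAR2, had 0.60 (SE 0.33, edgeR adjusted p 0.608).

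Other genes with the same protein domains were few in the table. Of 4 further trefoil-domain genes 2 were tested. The lysosomal glucosidase Gaa had 1.23 (SE 0.38, edgeR adjusted p 0.295) and the brush border enzyme Mgam -3.34 (SE 1.96, edgeR adjusted p 0.649; -2.74 without corn oil replicate 1). With voom, Gaa had 1.47 and passed the FDR (voom adjusted p 0.00996), as did 9.62% of all tested genes. Of 8 entries for other BRICHOS genes 3 were tested, of which Itm2a had 2.02 (SE 1.13), Itm2b -0.55 (SE 0.38) and Itm2c -0.58 (SE 0.29), with edgeR adjusted p-values of 0.555 to 0.711. The sign of Itm2b turned without corn oil replicate 2 (0.13), and Itm2a had 0.84 without tamoxifen replicate 4 and 2.94 without corn oil replicate 4.

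Tff1 is a textbook estrogen-induced gene in breast cancer cells, and tamoxifen modulates the estrogen receptor. Both groups carry the inducible Cre and only one was given tamoxifen, so the drug and the deletion cannot be told apart. Of 17 genes of the estrogen receptors and their response 12 were tested, 7 were lower, none passed the FDR in edgeR and none had an unadjusted p under 0.05. The median log2 fold change was -0.10, and it was 0.032 without corn oil replicate 4 and -0.10 without tamoxifen replicates 1 to 3. The growth factor Areg had -1.26 (SE 0.76, edgeR adjusted p 0.661; -0.36 without corn oil replicate 4 and -2.11 without tamoxifen replicate 5), the secreted Stc2 -1.56 (SE 1.02, edgeR adjusted p 0.690; -0.64 without tamoxifen replicates 1 to 3) and the protease Ctsd, the most abundant, -0.0081 (SE 0.35, edgeR adjusted p 0.999; 0.015 with RLE factors). With voom, Stc2 had -3.56 and passed the FDR (voom adjusted p 0.0225), as did 9.62% of all tested genes. Esr1 itself, named after its values were seen, averaged 1.80 ± 1.22 normalised CPM in the corn oil libraries (SD, n = 4) and 1.39 ± 0.991 in the tamoxifen libraries (SD, n = 6).

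Markers of the captured epithelium and of other cells were set beside these results. Of 8 epithelial markers 7 were lower, with a median log2 fold change of -0.37 and summed levels of 14203 to 30466 normalised CPM with corn oil and 14005 to 25048 with tamoxifen. The median was 0.082 without tamoxifen replicates 1 to 3. The adhesion protein Epcam stood at 1502 to 4875 normalised CPM with corn oil, at 765, 1049 and 766 in tamoxifen replicates 1 to 3 and at 2044 to 3179 in replicates 4 to 6 (log2 fold change -0.89, SE 0.46, edgeR adjusted p 0.572). The tight junction protein Cldn7 stood at 478 to 1486 with corn oil, at 199.99, 319 and 253 in tamoxifen replicates 1 to 3 and at 606 to 818 in replicates 4 to 6 (log2 fold change -0.93, SE 0.42, edgeR adjusted p 0.503). Both were thus lowest in the libraries where Gkn1, Gkn2 and Agr2 were near 0. All 9 tested of 10 fibroblast markers had higher means, with a median of 0.79 (-0.052 with voom weights, 1.64 with corn oil replicate 3 left out, 1.48 with corn oil replicate 4 or tamoxifen replicates 1 to 3 left out) and summed levels of 126 to 467 against 133 to 1052. Dcn stood at 5.18 to 32.1 with corn oil and 20.5 to 291 with tamoxifen. Macrophage markers (7 tested, 6 lower, median -0.42, -1.10 without tamoxifen replicate 4 and 0.24 without tamoxifen replicates 1 to 3) summed to 891 to 1334 and 810 to 2047, and of these Cd14 was higher without overlap, as were 1.28% of tested genes (log2 fold change 0.95, SE 0.25, edgeR adjusted p 0.227). Endothelial markers (3 tested) summed to 2.35 to 18.8 and 3.68 to 28.9.

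Islet markers moved with the groups. All 7 summed to 221, 4.21, 32.7 and 2.54 normalised CPM in corn oil replicates 1 to 4 and to at most 0.0871 with tamoxifen. Ins2 had 0 counts in all 6 tamoxifen libraries and 139, 2.62, 6.89 and 1.497 normalised CPM in corn oil replicates 1 to 4. Acinar markers summed to 22.6 to 205 with corn oil and 33.6 to 88.9 with tamoxifen, nearly all of it Cela1. Of 9 entries for gastric chief, parietal and endocrine cells only Pgc and Atp4a were listed, with summed levels of 4.18 to 226 and 0.523 to 37.7. The part of these other cells in the levels of trefoil factors and gastrokines was not tested.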

How the data were processed

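Whole-number counts per gene symbol for 10 libraries were deposited by the authors in 1 table. The labels' protocols name a column micro kit for the RNA, SMART-seq v4 for cDNA and Nextera XT for the libraries. The submitters' processing notes name STAR 2.5.2b, featureCounts 1.5.0-p3, bcl2fastq 2.17 and mm10. The annotation, strand setting and treatment of multimapping reads were not given in the sources used here.

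Deposited counts were tested with edgeR 4.0.16 in R 4.3.3 (filterByExpr, TMM, quasi-likelihood F test, no covariate, Benjamini-Hochberg FDR of 0.05 over 13006 genes). The SE is the absolute log2 fold change over the square root of F. Log2 CPM used a prior count of 2. Positions and exon lengths came from GENCODE M21 on GRCm38 (93.6% of symbols found once) and promoters from RefSeq (GRCm38.p6). The code was tested on simulated data, where edgeR at the FDR recovered 2% of 50 genes changed 2-fold and 38.8% of 49 changed 4-fold. It recovered 55.6% of 45 genes changed 8-fold and 76.1% of 46 changed 16-fold. A gene not past the FDR may therefore still differ.

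The genes, lists and tests were chosen with earlier results of these data known. In each list the 2 genes of smallest p, the most abundant gene and any past the FDR were named, and the 6 genes most alike to each of Tff1, Tff2 and the gastrokines, of which 1 is not reported here. Tff3 was too low for that comparison. Alternatives were RLE factors, no filter, 5 CPM in 4 libraries, DESeq2 1.42.0, limma 3.58.1 voom with quality weights, sex (from Xist and Ddx3y) as a covariate, each library left out, and tamoxifen replicates 1 to 3 summed or left out. Leave-outs for the overlap count were added after the values were seen. Figures used matplotlib 3.10.9.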

Additional observations from a re-analysis of the deposited data

Results flagged for a closer look

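In 12 of 43 groups examined a library stood apart from the rest of its group in normalised CPM. Chance gives about 1 in 20 for independent, normally distributed values only. All 12 stood apart on the high side of an unlogged scale, and some lists share genes, so no excess over chance is read from this count. Tff3 was far higher in corn oil replicate 2 (432) than in the other corn oil libraries (0.333 to 29.2). Corn oil replicate 4 stood apart for Gkn1 (5626 against 669 to 1226) and Gkn2 (3926 against 125 to 721), and tamoxifen replicate 6 for Gkn2 (134 against 0.348 to 40.0).

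Among summed lists, corn oil replicate 1 stood apart for partners and receptors of trefoil factors (4917 against 405 to 1088), macrophage markers (1334 against 891 to 936) and islet markers (221 against 2.54 to 32.7). So did tamoxifen replicate 4 for those partners (7940 against 374 to 1716) and for macrophage markers (2047 against 810 to 1211). Other BRICHOS genes were far higher in corn oil replicate 2 (5981 against 1783 to 2246) and in tamoxifen replicate 6 (3036 against 1760 to 2148), and goblet cell genes in corn oil replicate 4 (2056 against 708 to 909). Dmbt1 held most of the sum for partners, at 4811 in corn oil replicate 1 and 7724 in tamoxifen replicate 4. Itm2b held most for other BRICHOS genes, at 5683 in corn oil replicate 2 and 2836 in tamoxifen replicate 6. Agr2 held most for goblet cell genes, at 1831 in corn oil replicate 4.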

How the results depend on the processing

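The log2 fold changes of all 6 genes stayed negative in all 18 alternatives. They ran from -5.10 to -3.91 for Tff1, -3.03 to -1.57 for Tff2, -4.52 to -0.13 for Tff3, -9.03 to -4.09 for Gkn1, -9.32 to -3.76 for Gkn2 and -8.79 to -5.27 for Gkn3, and their median was -6.89 with voom. Of the 6 genes 0 passed the FDR with sex as a covariate, 5 with DESeq2, 4 with voom and 0 with tamoxifen replicates 1 to 3 summed or left out. With 1 library left out in edgeR it was 0 to 1, with 5 to 6 at an unadjusted p under 0.05. Of all genes 0 passed with sex as a covariate (1196 unadjusted), 243 with DESeq2, 1251 with voom, 0 with tamoxifen replicates 1 to 3 summed (709) or left out (602), and 0 to 11 with 1 library left out (894 to 1659). Genes lower without overlap numbered 3 to 4 of 6 with 1 library left out (1.98% to 3.53% of all tested genes). Without tamoxifen replicates 1 to 3 they numbered 3 of 6 (3.81% of all tested genes). DESeq2 gave no adjusted p for Tff3.

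Signs turned for Ctsd (0.015 with RLE factors and with DESeq2, 0.011 with sex, 0.20 and 0.36 with tamoxifen replicates 1 to 3 summed or left out, -0.23 to 0.24 with 1 library left out), Gata6 (-0.034 and -0.24 with those summed or left out, -0.28 to 0.96 with 1 left out), Dmbt1 (-0.087 with voom, -1.05 to 2.02 with 1 left out), Itm2b (-0.75 to 0.13 with 1 left out), Klf5 (0.020 without tamoxifen replicates 1 to 3) and Mgam (3.34 with sex). List medians turned for partners and receptors (0.080 and 0.48 with tamoxifen replicates 1 to 3 summed or left out, -1.05 to 0.33 with 1 left out), estrogen response (0.060 with voom, -0.35 to 0.032 with 1 left out), epithelial (0.082) and macrophage markers (0.24) without tamoxifen replicates 1 to 3, and fibroblast markers (-0.052 with voom). With voom the medians of mucous neck genes and macrophage markers were -4.66 and -1.83. The cause was not tested.

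No paired analysis was possible because the labels number no replicates, and the numbers used here follow the order of deposit. In tamoxifen replicates 1 to 3, Gkn1 (12 to 32 counts) and Gkn2 (4 to 9 counts) rest on few counts, so differences among these libraries are limited by depth for these genes.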
